A study of Mus musculus with 20 samples.

Results

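Growth hormone receptor and STAT5 signalling was followed through 8 genes of the liver: Ghr, Jak2, Stat5a, Stat5b, Socs2, Cish, Socs1 and Bcl6. They were taken by name from the array annotation, which gave 16 probes among the 41174 different non-control probes of the design. All 16 were well above background on enough arrays to be kept, so all 8 genes stood among the 17186 gene rows that were tested. The livers came from male C57BL/6J mice that had eaten a diet with 60% of its energy as fat since weaning and were 6 weeks old. Of the 20 samples, 10 came from mice labelled as susceptible to obesity on this diet, called responders, and 10 from mice labelled as resistant to it, called non-responders. Strain, sex, diet and age were shared by both groups, and no group on another diet was part of the design. The labels do not say that each sample was a separate mouse, and they state neither the hour nor the feeding state at collection. A p-value therefore measures the spread between these samples, which may be partly technical.

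Growth hormone binds a receptor dimer at the cell surface, and the receptor-bound kinase JAK2 then phosphorylates the receptor and the transcription factors STAT5A and STAT5B. STAT5 enters the nucleus and raises target genes, among them Igf1 and the feedback inhibitors Cish, Socs2 and Socs1, while it lowers Bcl6, a repressor that shares many binding sites with STAT5. In male mouse liver the hormone arrives in pulses, so that nuclear STAT5 comes and goes between pulses, and this rhythm sets much of the sex difference in liver gene expression.

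STAT5 binds a palindromic core written TTCNNNGAA, which reads the same on both strands. RefSeq promoter windows (build GRCm38.p6, 250 bases before to 50 after an annotated start) were available for 7 of the 8 genes, with 11 windows in all; Socs2 had no entry. The core was found in the single Cish window and in both Bcl6 windows, and in none of the windows of Ghr, Jak2, Stat5a, Stat5b or Socs1. Of 32851 promoter windows of that length, 8.3% held at least 1 core, 0.457% at least 2 and 0.0335% at least 3. The Cish window held 2 cores, starting at bases 1 and 12 after the start, which do not overlap. The window of the second Bcl6 start held 3, starting at -168, -122 and -88 relative to it, and the window of the other start held 1. The 2 windows below are shown because Cish and Bcl6 turned out to be the most variable of the 8 genes and to vary against each other. Each is printed from its 5′ end to 30 bases after the start, with the cores in capitals. A match describes letters and does not show binding.
Cish, chr9:107296409-107296688, plus strand: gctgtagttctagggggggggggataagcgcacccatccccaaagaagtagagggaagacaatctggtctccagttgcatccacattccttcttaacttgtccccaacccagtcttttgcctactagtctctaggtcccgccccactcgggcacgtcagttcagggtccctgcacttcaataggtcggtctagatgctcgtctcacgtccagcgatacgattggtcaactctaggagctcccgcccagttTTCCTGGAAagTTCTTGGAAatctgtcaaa
Bcl6, second start, chr16:23981254-23981533, minus strand: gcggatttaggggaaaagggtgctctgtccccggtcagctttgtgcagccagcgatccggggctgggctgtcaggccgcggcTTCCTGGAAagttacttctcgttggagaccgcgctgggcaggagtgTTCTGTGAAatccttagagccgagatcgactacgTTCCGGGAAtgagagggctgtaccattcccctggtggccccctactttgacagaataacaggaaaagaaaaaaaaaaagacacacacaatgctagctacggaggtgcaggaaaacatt

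The arrays were single-colour Agilent arrays, and a value is the log2 of a probe's processed signal over the 75th percentile of its array. The arrays came in 2 slide series, which coincided with the day of scanning; the first held 6 non-responders and 4 responders, the second 4 and 6. Between 55.8% and 71.2% of spots were well above background, and the number of arrays limits the precision. All 6 hepatocyte markers were well above background on every array, which bears out the tissue label. Other cell types varied between livers. The 6 measured adipocyte markers were all lower in responders (median difference -1.37), against 50.7% of all rows. Of them, 5 were lower at an unadjusted p under 0.05 by limma, against 3.69% of all rows. Of the 6, 2 were above background on all arrays. Plin1 was above it in 3 responders and 8 non-responders, and Retn in 2 and 6. The mean level of the 6 markers spanned -4.21 to -0.89 in responders and -3.19 to 0.61 in non-responders. Pancreatic acinar markers spanned -6.47 to 5.41 and -5.43 to 5.38. Across livers, the correlation of the 8 genes with the adipocyte mean was between -0.42 (Stat5a) and 0.10 (Bcl6), and with the pancreatic mean between -0.30 (Ghr) and 0.39 (Stat5b). In whole liver, fewer cells of a type and less RNA per cell cannot be told apart.

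None of the 8 genes differed between responders and non-responders in limma's test with slide series as a term, at a Benjamini-Hochberg adjusted p of 0.05. The background was 0% of 17186 gene rows called, and 8.02% (1379 rows) at an unadjusted p under 0.05. None of the 8 genes reached that level by its brightest probe. What set the 8 genes apart from one another was how far they ranged from liver to liver. Cish spanned 4.38 on the log2 scale, a 20.8-fold range, Bcl6 spanned 3.58 (11.9-fold) and Socs2 spanned 2.69 (6.44-fold). Their within-group SDs lay at percentiles 98.4, 97.8 and 96.3 among 17050 gene rows with a value on every array. The receptor and its kinase were at the other end: Ghr spanned 0.69 (percentile 10.4) and Jak2 0.69 (17.7), with Stat5b at 0.58 (26.3). Stat5a spanned 1.21 and Socs1 1.47. These values are for the brightest probe of each gene.

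**Figure D1:**
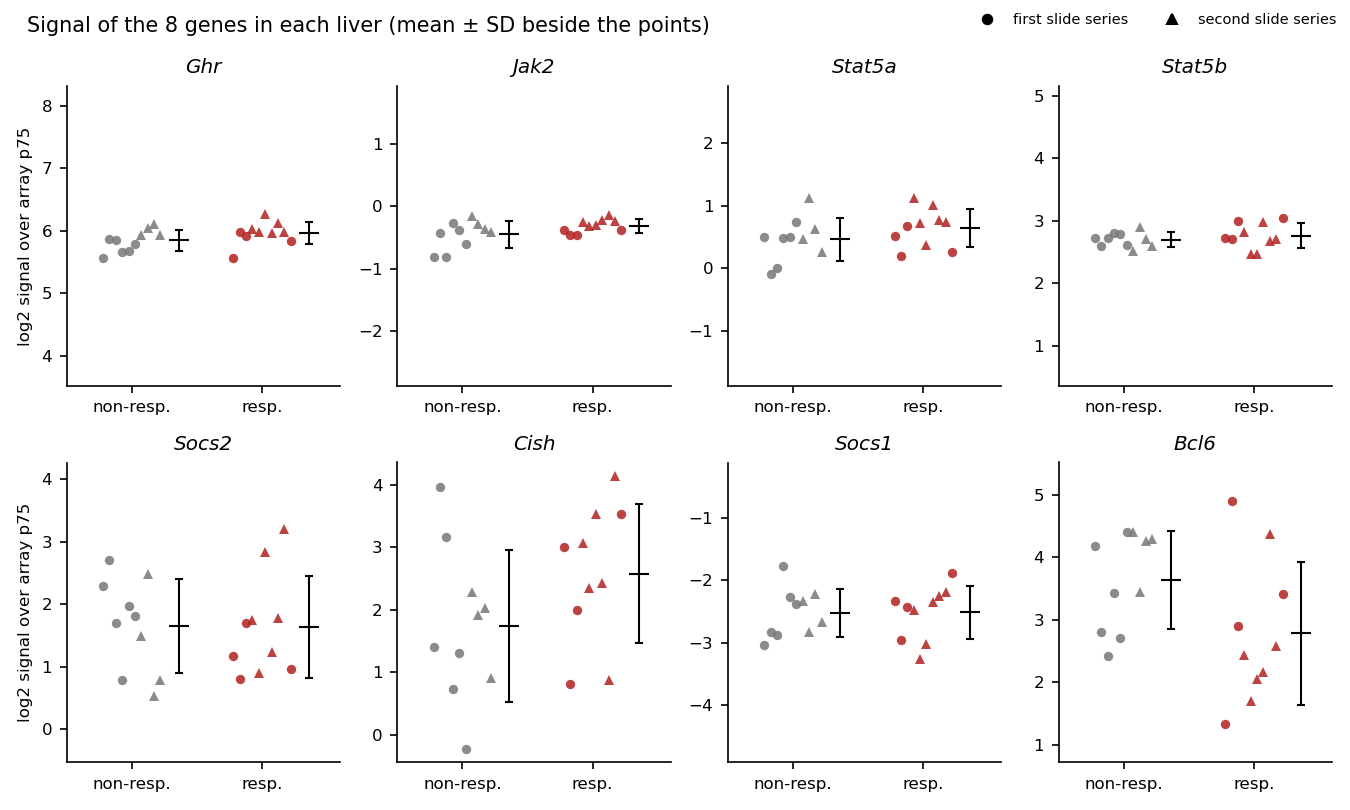
Log2 signal over the array's 75th percentile (y axis, the same height of 4.8 units in each panel) of the 8 genes in 10 non-responder (grey) and 10 responder (red) livers; circles are the first and triangles the second slide series, and the bars beside the points are mean ± SD. Over all livers of both groups together, Cish, Bcl6 and Socs2 scatter over 2.69 to 4.38 units, while Ghr, Jak2 and Stat5b stay within 0.69.

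The growth hormone receptor gene Ghr was represented by the probe on chromosome 15 at 3277988-3278047 (mm9), which is assigned to a RefSeq mRNA. Its level in responders ran from 5.57 through a median of 5.98 to 6.27, and in non-responders from 5.57 through 5.86 to 6.11. The ranges overlapped, with 2 responders above every non-responder. The difference was 0.07 (SE 0.06, 95% interval -0.06 to 0.20, adjusted p = 0.793 by limma, exact within-series permutation p = 0.236). For this probe, an increase of more than 0.20 in responders lay outside the interval. That bound does not extend to the other Ghr probes, described below.

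The array carries 5 Ghr probes, and they fell into 2 sets. The first 30 bases of each are shown to tell them apart, in the order in which they lie from the 5′ side of the gene. All are on chromosome 15 (mm9), with positions descending along the transcript.
A_52_P633550, at 3295320-3295379: ccgacatatgcaaaagaacatcctgtttta
A_52_P680941, across a junction between 3283509 and 3290961: ggtgatttgctggaccaaaaatgtttcact
A_52_P680935, at 3277988-3278047: aaagtacagcgagttcagcgaagtcctccg
A_52_P54106, at 3275624-3275683: gaagtttaggcacatcctgtcatactaagg
A_51_P499854, at 3268107-3268166: atctctttcatgcaggagagacagtgaaaa
The second, the third and the last of these are assigned to RefSeq mRNAs, and they moved together across livers with little spread (r of 0.59 to 0.71 between pairs, 20 livers). The first is assigned to an Ensembl transcript and the fourth to a cDNA clone. These 2 correlated with each other at r = 0.97 and with the 3 others at r between -0.12 and 0.08. Whether they lie in introns or untranslated regions was not analysed here.

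The 2 Ghr probes outside the RefSeq mRNAs had the widest group differences of the 5. A_52_P633550 differed by 0.75 (SE 0.28; unadjusted p = 0.0133, adjusted p = 0.516 by limma over 26160 probes) and A_52_P54106 by 0.80 (SE 0.32; unadjusted p = 0.0210, adjusted p = 0.547). Neither passed the adjusted test, in a fit where 0% of probes did and 8.21% had an unadjusted p under 0.05. Responder means were 3.09 ± 0.56 and 1.31 ± 0.61 (SD, n = 10), against 2.16 ± 0.95 and 0.34 ± 1.01 in non-responders. The groups overlapped, and the lowest values belonged to non-responders 2, 3 and 6, all of the first slide series. The last of the RefSeq probes differed by -0.01 (SE 0.09) and the junction probe by 0.12 (SE 0.08). Averaging all 5 probes moved the Ghr difference to 0.35 (adjusted p = 0.472).

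**Figure D2:**
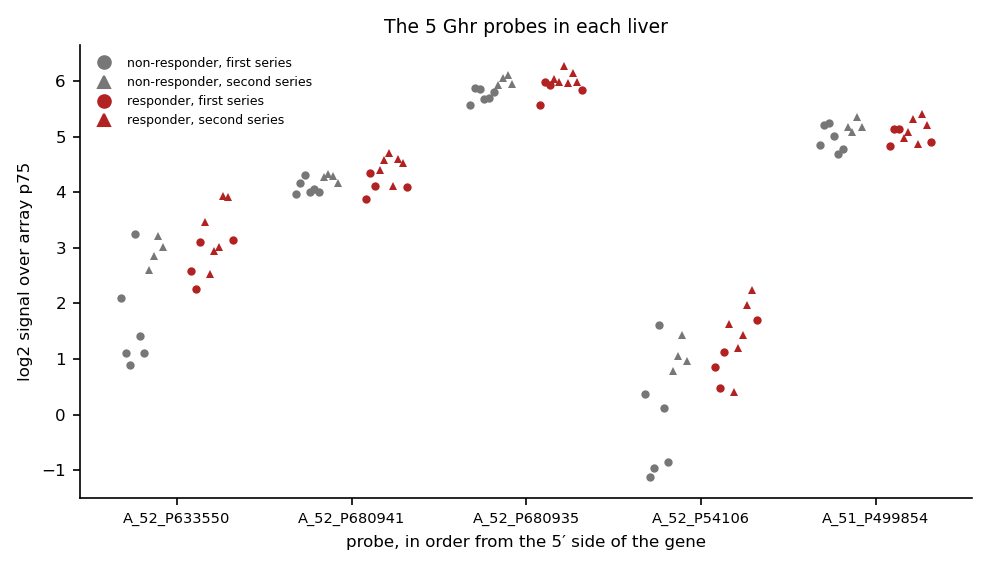
Log2 signal over the array's 75th percentile (y axis) of the 5 Ghr probes (x axis, in order from the 5′ side), in each liver; grey is non-responder and red is responder, circles the first and triangles the second slide series. The 3 probes assigned to RefSeq mRNAs are tight, whereas A_52_P633550 and A_52_P54106 spread widely and include the 3 lowest livers, all non-responders.

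Jak2, the kinase that the receptor carries, was read by a probe on chromosome 19 at 29386361-29386420. Responders ran from -0.46 through -0.30 to -0.13 and non-responders from -0.82 through -0.40 to -0.16. The groups overlapped, 3 non-responders lay below every responder, and 9 of 10 exceeded the mean of the non-responders scanned in the same series. The difference of 0.09 (SE 0.07; 95% interval -0.05 to 0.24) did not pass (adjusted p = 0.742 by limma; exact permutation p = 0.164). The 2 lowest livers were non-responders 1 and 3. A second Jak2 probe, not well above background in 2 responders, did not follow the first (r = -0.11) and differed by -0.11 (SE 0.10).

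Stat5a and Stat5b encode near-identical transcription factors from neighbouring genes on chromosome 11, and STAT5B is the main form in liver. The Stat5a probe (100746144-100746203) gave 0.19, 0.70 and 1.12 as the lowest, median and highest responder level, and -0.09, 0.50 and 1.12 in non-responders. The brightest Stat5b probe (100642099-100642158) gave 2.47, 2.72 and 3.05 in responders and 2.51, 2.71 and 2.90 in non-responders. For both genes the groups overlapped, and for Stat5b the responders spread wider, with 2 below and 3 above every non-responder. The differences were 0.11 (SE 0.13; adjusted p = 0.834) for Stat5a and 0.08 (SE 0.08; adjusted p = 0.796) for Stat5b, with exact permutation p = 0.406 and p = 0.269. Another Stat5b probe, across a junction between 100648654 and 100649702, was higher in responders by 0.25 (SE 0.09; unadjusted p = 0.0163, adjusted p = 0.521 by limma over probes), while the third, assigned to a cDNA clone, differed by -0.06 (SE 0.17). The Stat5a probe shared no run of more than 6 bases with any Stat5b probe, out of 60.

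Cish encodes CIS, an SH2 protein that docks on the activated receptor and blocks STAT5, and it is one of the fastest STAT5 targets. Its probe lies on chromosome 9 at 107204196-107204255. Responder levels ran from 0.81 through a median of 2.72 to 4.14, and non-responder levels from -0.23 through 1.66 to 3.97. The highest livers were responder 9 and non-responder 2, and the lowest was non-responder 6, so each group held both high and low livers. Of 10 responders, 8 exceeded the non-responders' mean in the same series. The difference of 0.78 (SE 0.51; 95% interval -0.29 to 1.85) was of the same sign in both series (0.61 and 0.95) and did not pass (adjusted p = 0.722 by limma; exact permutation p = 0.168). An effect of up to 1.85 in favour of responders lay within the interval, since the within-group SD was 1.19. With normexp background correction the difference was 0.41.

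Socs2 encodes the inhibitor whose loss in mice causes overgrowth, and it too is raised by STAT5. The probe on chromosome 10 at 94875066-94875125 gave 0.81, 1.47 and 3.21 in responders and 0.53, 1.76 and 2.71 in non-responders. The groups overlapped, with responders 9 and 6 highest. The difference was -0.04 (SE 0.35; 95% interval -0.77 to 0.68; adjusted p = 0.979 by limma; exact permutation p = 0.905). Series 1 alone gave -0.72 (SE 0.33) and series 2 alone 0.63 (SE 0.51). The interaction of group and series had an unadjusted p of 0.0494 and an adjusted p of 0.514; 0% of rows passed that test, and 9.71% had an unadjusted p under 0.05. The second Socs2 probe followed the first across livers (r = 0.83) and differed by -0.15 (SE 0.22).

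Socs1, an inhibitor that binds the JAK kinase domain and answers chiefly to interferons, was read on chromosome 16 at 10783951-10784010. Responders ran from -3.25 through -2.38 to -1.87 and non-responders from -3.03 through -2.52 to -1.77. Neither the centre nor the range separated the groups, with a difference of 0.03 (SE 0.18; adjusted p = 0.974 by limma; exact permutation p = 0.881).

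Bcl6, the repressor on the other side of STAT5, showed the largest difference of the 8 genes and the lowest p. Its probe lies on chromosome 16 at 23965160-23965219. Responder levels ran from 1.33 through a median of 2.51 to 4.91 and non-responder levels from 2.42 through 3.81 to 4.41. The groups overlapped: 4 responders (1, 5, 6 and 7) lay below every non-responder, while responder 2 lay above them all. The difference was -0.87 (SE 0.43; 95% interval -1.77 to 0.03; unadjusted p = 0.0585, adjusted p = 0.636 by limma; exact permutation p = 0.0757), and 7 of 10 were under the non-responders' mean in the same series. Most of it came from the second slide series, with -1.55 (SE 0.46) against -0.19 (SE 0.64) in the first; the interaction did not pass (unadjusted p = 0.119, adjusted p = 0.605). With Adipoq, an adipocyte gene, as a covariate the difference was -0.96, and with the pancreatic marker mean it was -0.90.

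**Figure D3:**
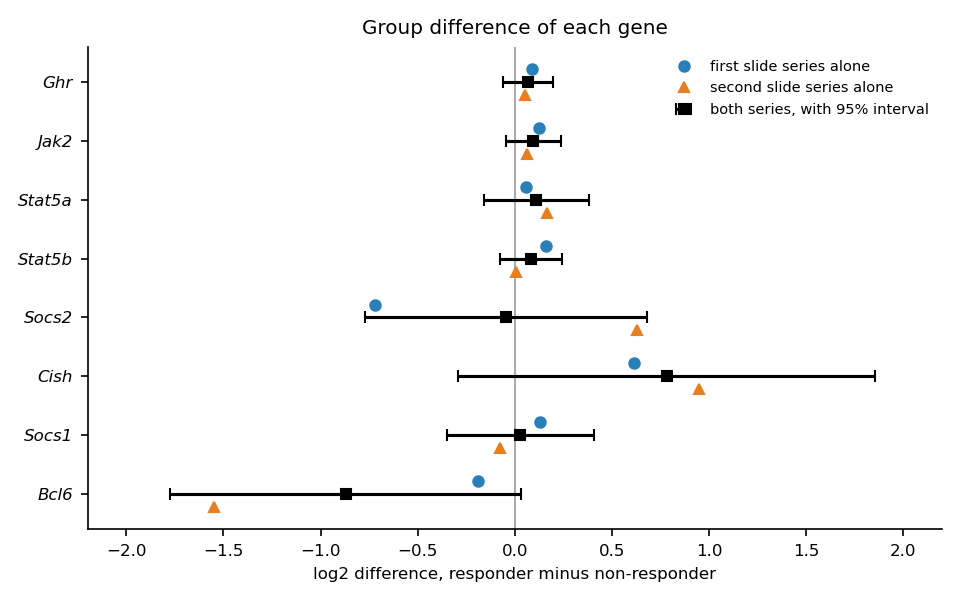
Fitted difference between responder and non-responder livers (x axis, log2) for the 8 genes, with its 95% interval (squares, both slide series) and the value within each slide series (circles first, triangles second). By the brightest probe of each gene, every interval includes 0. Those of Ghr and Jak2 stay within 0.24, while those of Cish and Bcl6 reach 1.85 and -1.77.

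The other genes of the pathway were counted in 4 lists, each read against all 17186 rows, of which 49.3% had a fitted difference above 0 and 50.7% below, with a median of -0.002. No gene of any list passed the adjusted test. Of 34 measured genes of receptor-proximal signalling, 19 were higher and 15 lower in responders (median 0.01), against 13 and 21 under normexp background correction (median -0.12). Pias4 and Pias3, SUMO ligases that restrain STATs, differed by 0.17 (SE 0.07) and 0.26 (SE 0.11). The phosphatases Ptpn11 and Ptpn1 differed by -0.12 each (SE 0.05), and all 4 had unadjusted p values between 0.0222 and 0.0449. Gh and Irs2 had no kept probe.

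Of 15 genes that growth hormone is known to raise in liver, 10 were higher and 5 lower (median 0.03), a split that turned to 4 and 11 under normexp correction (median -0.40). Igf1, the hormone's main effector, differed by 0.05 (SE 0.10). Igfals, the acid-labile subunit that carries IGF1 in blood, differed by 0.37 (SE 0.12; unadjusted p = 0.00436, adjusted p = 0.504 by limma), with 0.62 and 0.13 in the 2 series. Onecut1, the liver factor HNF6, differed by 0.67 (SE 0.28), with -0.01 and 1.35 in the 2 series. The metallothionein gene Mt1 differed by -0.90 (SE 0.39) and Cebpd, a C/EBP factor, by -0.56 (SE 0.32).

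Of 20 male-biased genes that depend on pulsatile growth hormone, 17 were higher in responders and 3 lower (median 0.11), with 6 at an unadjusted p under 0.05 in that direction, against 4.33% of all rows, and 0 in the other, against 3.69%. Of the 20, 18 were above background on all arrays. Cib3, 1 of the 6, was above it in 8 responders and 2 non-responders, so it was kept only through the group where it was higher. Its difference was 0.84, and 0.11 with plain background subtraction. Under normexp correction the split turned to 5 higher and 15 lower (median -0.33). The complement gene C6 differed by 0.29 (SE 0.09) and Cyp2u1, a cytochrome P450, by 0.45 (SE 0.15), at unadjusted p of 0.00519 and 0.00603. Among the 3 lower genes, Cspg5 differed by -0.07 (SE 0.11) and Elovl3, a fatty acid elongase, by -0.21 (SE 0.54). Of 18 measured female-biased genes that the pulses repress, 3 were higher and 15 lower (median -0.22); under normexp 8 were higher and 10 lower. Trim24, a transcriptional cofactor, differed by -0.37 (SE 0.17; unadjusted p = 0.0415). Among the higher genes, Ntrk2 differed by 0.70 (SE 0.38) and Prom1 by 0.42 (SE 0.30). Of the 18, 12 were above background on all arrays. Prom1 was above it in 8 responders and 4 non-responders, and Acot3, among the lower genes, in 4 and 6. Each of these was kept only through the group where it was higher. With plain background subtraction Prom1 differed by 0.02 and Acot3 by -0.25. The genes of a list share regulators and livers, so these counts describe the lists and test nothing.

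The members were next compared with each other across the 20 livers, after removal of slide series means. Of 28 pairs, 4 had a permutation p under 0.05 and 0 passed in limma's fits over all genes, where the smallest adjusted p was 0.103. Over all rows, the share at an unadjusted p under 0.05 by limma ran from 2.92% with Ghr to 21.5% with Socs1. The count of 4 was not tested against these shares. The closest relation was an inverse one between Cish and Bcl6 (r = -0.65, permutation p = 0.00254; rho = -0.67, permutation p = 0.00148). It was of like size in both series (r = -0.64 and -0.68), in responders (-0.63) and in non-responders (-0.65), and was -0.64 without the 2 livers farthest from the median of Cish. In the fits over all genes the pair did not pass: the adjusted p was 0.350 with Cish as the covariate and 0.9995 with Bcl6. Responder 9 and responder 1 showed high Cish with low Bcl6 (4.14 with 2.58 and 3.01 with 1.33), and non-responder 6 and responder 2 showed the reverse (-0.23 with 4.41 and 0.81 with 4.91).

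The 2 inhibitors that STAT5 raises, Socs2 and Cish, correlated at r = 0.41 (permutation p = 0.0699; rho = 0.32, permutation p = 0.158), with 0.21 and 0.63 in the 2 series, and 0.29 without the 2 livers farthest from the median of Socs2. Stat5a and Stat5b correlated at r = 0.55 (permutation p = 0.0168; rho = 0.57, permutation p = 0.0133), with 0.22 and 0.80 in the 2 series. It was 0.63 in responders and 0.59 in non-responders. Without non-responders 2 and 10, the farthest from the median of Stat5a, r was 0.49 (permutation p = 0.0502). Neither STAT gene followed Cish, with r of -0.29 for Stat5a and 0.10 for Stat5b. Jak2 correlated with Socs1 at r = 0.60 (permutation p = 0.00842; rho = 0.60, permutation p = 0.00674), with 0.71 and 0.40 in the 2 series. It was 0.78 in responders and 0.70 in non-responders. Without non-responders 1 and 3, the farthest from the median of Jak2, r was 0.47 (permutation p = 0.0632). Both genes correlated inversely with the hepatocyte marker mean (r = -0.68 and -0.60), whose part in the relation was not tested. Stat5b and Socs1 gave r = 0.48 (permutation p = 0.0337; rho = 0.56, permutation p = 0.0138), with 0.56 and 0.42 in the 2 series. It was 0.75 in responders and 0.06 in non-responders, a difference that was not tested. Without responders 7 and 10, the farthest from the median of Stat5b, r was 0.37 (permutation p = 0.146). The change in r was not tested. No pair with the receptor gene had a permutation p under 0.05, its r lying between -0.26 and 0.15.

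**Figure D4:**
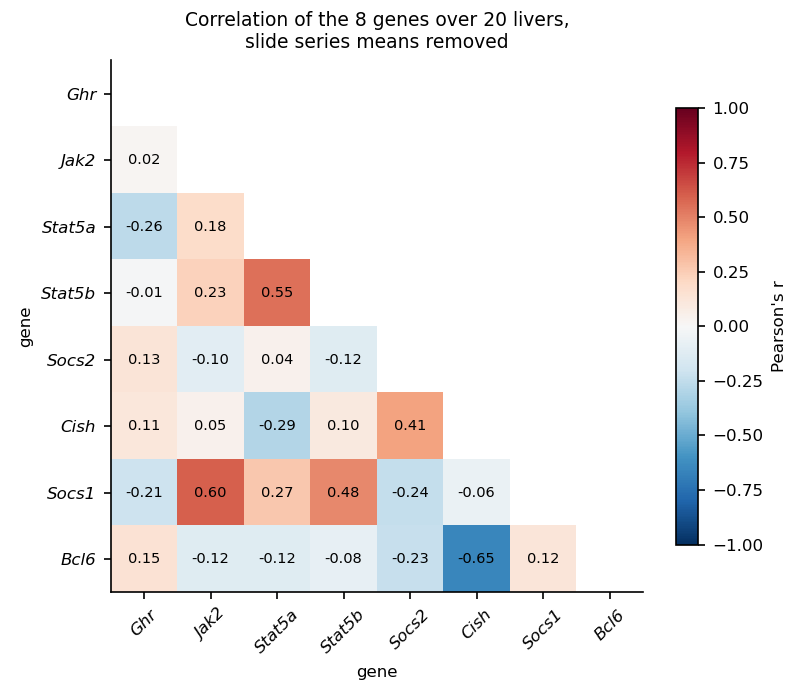
Pearson's r (colour and number in each cell) for the 28 pairs of the 8 genes over 20 livers, with slide series means removed. The most negative cell is Cish with Bcl6 (-0.65), the most positive are Jak2 with Socs1 (0.60) and Stat5a with Stat5b (0.55), and the Ghr column stays between -0.26 and 0.15.

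Each member was then used as a covariate in limma's fit over the other 17185 rows. Ghr, Jak2 and Bcl6 had 0 associated genes at an adjusted p of 0.05 (0% called), with 502 (2.92%), 1731 (10.1%) and 668 (3.89%) at an unadjusted p under 0.05. Socs2 had 1 (0.00582%), a probe with no gene name, A_52_P248403 (r = 0.91). Cish had 10 (0.0582%), Stat5a 643 (3.74%), Stat5b 650 (3.78%) and Socs1 860 (5%). At an unadjusted p under 0.05 the shares were 7.59% for Socs2, 6.88% for Cish, 19.7% for Stat5a, 18.7% for Stat5b and 21.5% for Socs1. Leaving out 1 liver at a time gave 3 to 13 for Cish, 273 to 907 for Stat5a, 232 to 1071 for Stat5b and 334 to 1266 for Socs1. The Cish count was 3 without non-responder 2 or responder 9, 5 without responder 8, and 6 without non-responder 5, non-responder 10 or responder 6. The Stat5a count was 273, 356, 402 and 400 without non-responders 2, 3, 6 and 8, and 384 and 366 without responders 3 and 4. The Stat5b count was 358 and 1071 without non-responders 2 and 6, and 263, 277, 232, 352 and 271 without responders 3, 5, 6, 7 and 10. The Socs1 count was 426, 549, 468 and 421 without non-responders 1 to 4, and 334, 347 and 561 without responders 5, 6 and 10. Socs2 had 2 without non-responder 10.

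Of the 10 genes associated with Cish, 8 rose and 2 fell with it, and 5 had names. Foxa2, a pioneer factor of hepatocytes, followed Cish most closely (r = 0.88, rho = 0.93; adjusted p = 0.00253 by limma), with r = 0.84 and 0.96 in the 2 series. Per unit of Cish on the log2 scale, Foxa2 rose by 0.30 (SE 0.04), within a range of 2.33 to 3.71 over livers. Hhex, a homeobox factor of liver development, rose by 0.64 (SE 0.08; r = 0.87), Phlda1 by 0.61 (SE 0.09; r = 0.84) and F830014O18Rik by 0.81 (SE 0.11; r = 0.86). Dkk3, a secreted protein of the Dickkopf family, was the named gene that fell, with a slope of -0.20 (SE 0.04; r = -0.82). Among genes fixed in the pathway lists, 0 passed with Cish; Myc came closest (r = 0.77, adjusted p = 0.0557), and the male-biased genes had r above 0 in 19 of 20, with a median of 0.23 against -0.002 over all genes. Map3k14 (r = -0.77) and Kctd17 (r = -0.76) were the next most opposite genes to Cish, and did not pass.

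Among 11893 candidates, the 3 genes most like Socs1 were Cxcl10, a chemokine (r = 0.90), Rtp4 (r = 0.89) and Gbp6, a guanylate-binding protein (r = 0.88). Their adjusted p was 0.000304, 0.000609 and 0.000656 by limma, with r from 0.79 to 0.94 in the single series. The most opposite were Plbd2 (-0.89), Stard5 (-0.87) and Endog (-0.86). In the receptor-proximal list 5 of 34 genes rose with Socs1, among them Tyk2, Stat2, Irs1 and Grb14 (r of 0.66 to 0.79), and 0 fell. Over all 17185 rows 436 rose and 424 fell with Socs1, 5% together. In the female-biased list 3 of 18 fell with it, Fmo2, Cyp2b9 and Acot3. The lymphocyte marker mean moved with Socs1 (r = 0.62), as did the macrophage mean (r = 0.56); the lymphocyte list had 7 of 8 markers measured, 5 of them above background on all arrays, and its mean spanned -3.08 to -2.15 in responders and -2.75 to -2.07 in non-responders. The part of these cells in the result was not tested. With Socs1, single slide series gave 13 and 3 associated genes.

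Across livers, the junction probe of Stat5b correlated with the brightest Stat5b probe at only r = 0.40 (rho = 0.45). For the cDNA clone probe r was 0.33 (rho = 0.26). With the mean of all Stat5b probes, 23 genes were called, against 650 with the brightest. By the brightest probe, Stat5b varied little, and its closest relations were with genes that vary much. Mfsd2a, a lipid transporter, opposed it most (r = -0.91; adjusted p = 0.000167 by limma), followed by the clock gene Per1 (r = -0.90) and Klf13 (-0.89), and Lpar6 (0.89), Cited2 (0.87) and Anp32a (0.86) rose with it. Per1 split the livers: it lay between -3.36 and -1.72 in 5 livers, 4 responders and 1 non-responder, and between -0.41 and 1.26 in the other 15. The 5 livers were responders 3, 4, 7 and 10 and non-responder 8, and their Stat5b levels (2.82 to 3.05) were the 4 highest responder values and the highest non-responder value. Within the other 15 livers, r with Stat5b was -0.61 for Per1, -0.80 for Mfsd2a, -0.64 for Klf13 and 0.61 for Lpar6, and 0 genes passed, against 650 in all 20. This split was seen in the data, and the labels give no group that matches it. Leaving out the 5 livers took out the highest Stat5b values and left fewer livers, so the counts of 0 and 650 are not comparable. The correlation of Stat5a with Stat5b was 0.30 in the 15 livers (permutation p = 0.254).

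**Figure D5:**
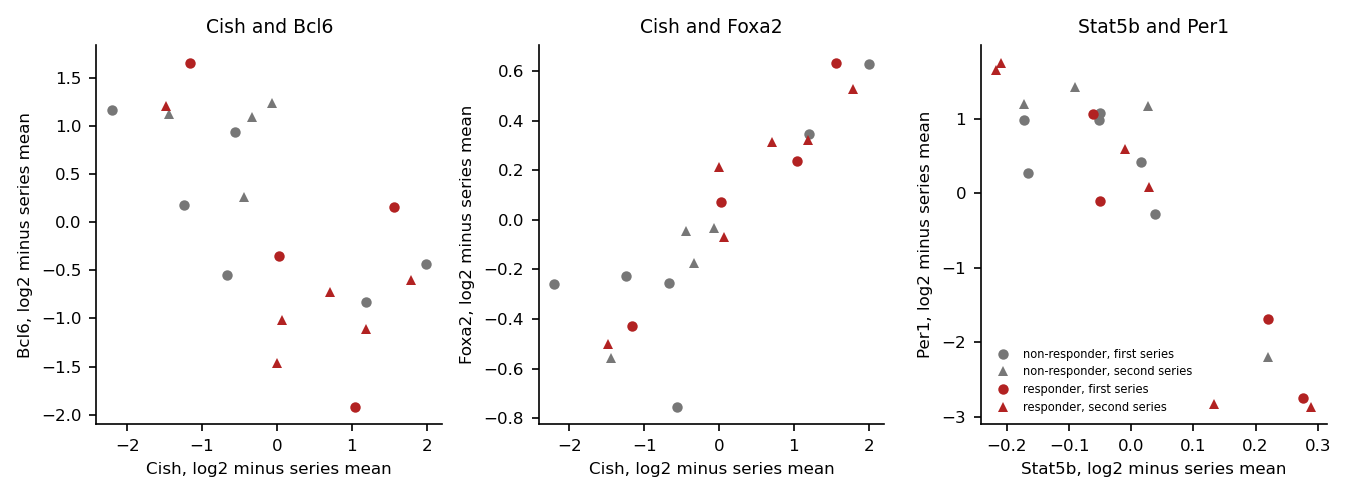
Log2 levels minus slide series means in each liver: Bcl6 against Cish, Foxa2 against Cish, and Per1 against Stat5b; grey is non-responder and red is responder, circles the first and triangles the second slide series. Bcl6 falls (r = -0.65) and Foxa2 rises (r = 0.88) with Cish along a continuous range, whereas Per1 forms a separate group of 5 low livers at the highest Stat5b.

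Of 87 genes measured in the 4 pathway lists, 7 passed with Stat5b, where 3.78% of all rows did. Tyk2, Pias3 and Irs1 rose with it (r of 0.67 to 0.74), and Cebpd (r = -0.83), Cebpb (-0.71), Tox (-0.72) and Cyp2b9 (-0.70) fell. With Stat5a 5 of the 87 passed, where 3.74% of all rows did. Among them, Elovl3 (r = 0.81) and Stat2 (0.70) rose, and Sh2b3 (-0.77) and Cyp2a4 (-0.75) fell. The genes most like Stat5a were Srms (0.89), Sowahb (0.88) and Reep4 (0.87), and the most opposite Fchsd2, Coq10b (both -0.88) and Serpina6 (-0.86), the gene of corticosteroid-binding globulin. Within the 15 livers not low in Per1 these 6 kept r of 0.82 or more in size, while the number of genes associated with Stat5a was 2. In the same 15 livers Socs1 had 685 associated genes and Cish 15. Why the counts changed differently between members was not tested.

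The remaining members had few or no associated genes that passed the adjusted test. For Ghr, Slc10a2, a bile acid transporter, was among the 3 most alike (r = 0.70) and Inpp5a was the most opposite (-0.72), both with an adjusted p of 0.9997. All 15 growth hormone-raised genes had r above 0 with Ghr (median 0.17, against 0.02 over all genes), Igf1 the highest at 0.58, and 0 passed. In the same list, r was below 0 in 11 genes with each of Jak2, Stat5a and Stat5b, and in 12 with Socs1. It was above 0 in 10 with Socs2, 9 with Cish and 8 with Bcl6. The mean of the list correlated at 0.41 with Ghr, -0.68 with Stat5a and -0.64 with Stat5b. For Jak2 the extremes were Tlr3 (0.75) and Mtrex (-0.84), for Socs2 Snhg1 (0.78) and Cdc42ep4 (-0.83), and for Bcl6 Epb41l1 (0.70) and Atf4 (-0.74), with 0 of these past the adjusted test. Socs2 correlated inversely with the lymphocyte marker mean (r = -0.62), whose part was not tested.

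The 2 Ghr probes outside the RefSeq mRNAs had associated genes as well. A_52_P633550 had 413 (2.4%) and A_52_P54106 had 345 (2.01%), against 0 (0%) for each of A_52_P680941, A_52_P680935 and A_51_P499854. The 2 lists shared 284 genes in the same direction, 68.8% of the first and 82.3% of the second. Gclc, the catalytic subunit that makes glutathione's precursor, was among the closest to both (r = 0.85 and 0.86), and Got1 (-0.82 and -0.83) among the most opposite. Neither probe followed Cish (r of 0.02 and 0.03), Bcl6 (0.05 and 0.02) or Socs2 (-0.19 and -0.18).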

How the data were processed

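Liver RNA of 20 samples was hybridised to 1 Agilent array each. The deposited scanner files give each spot's linear intensity after subtraction of background and spatial trend, per the file headers. These name Feature Extraction 10.5.1.1, whereas the submitters' processing notes name 9.1. The authors' deposited table of processed intensity served as an alternative.

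The processed signal was divided by its 75th percentile on that array and put on a log2 scale. Control and outlier-flagged spots were left out, a probe was kept (26160 were) if 5 or more arrays of 1 group had it well above background, and a gene's brightest probe stood for it, giving 17186 rows, 14689 with a symbol from a RefSeq table or the array. Array positions are mm9. limma 3.58.1 in R 4.3.3 fitted group and slide series, the interaction, and each member as a covariate, with Benjamini-Hochberg adjustment at 0.05. The exact permutation test ran over 44100 arrangements within series; correlations used 100000 permutations within series (two-sided). The fits were checked on simulated data.

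The members and lists were chosen with earlier results of these data known. All members were named. Of each list, up to 2 genes per direction with the smallest p were named, and for each member genes of highest and lowest r, among genes above background on all arrays without predicted genes, clones or accessions. List genes associated with a member, Igf1, the gene F830014O18Rik, and the genes nearest to single Ghr probes were named after their values were seen. Alternatives covered background correction, scaling, filters, probe choice, slide series, slide, number in the title, weights, variance model and each array left out. Plain background subtraction, 2 marker covariates, single Ghr probes, arrays left out of the association fits and livers low in Per1 were added after seeing the data. Some genes these rules chose are not reported here.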

Additional observations from a re-analysis of the deposited data

How the results depend on the processing

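The group comparison called 0 genes under each of the 16 alternatives and in each of the 20 fits without 1 liver. The limits are the spread of Cish, Bcl6 and Socs2 between livers, the 10 samples a group, and marker genes of other cells that vary between livers. Differences of members changed sign, without passing the test, in these settings: Ghr was -0.43 with normexp and -0.0019 with the authors' deposited values; Jak2 was -0.0085 as the mean of its probes; Stat5b was -0.24 with normexp; Socs2 was 0.63 and Socs1 -0.0748 in the second slide series; and Socs1 was -0.0014 with Adipoq as a covariate. Without 1 liver each, Ghr lay between 0.04 and 0.11, Jak2 between 0.07 and 0.12, Stat5a between 0.05 and 0.18, Stat5b between 0.05 and 0.12, Socs2 between -0.23 and 0.0709, Cish between 0.60 and 1.03, Socs1 between -0.0596 and 0.10, and Bcl6 between -1.20 and -0.66.

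Whether the number in the sample title pairs the samples was not settled. Correlations of same-numbered samples ran from -0.23 to 0.59. Among arrays of the other group, 6 of 20 arrays correlated best with their own number, and no chance level was computed for this count. With the replicate block 0 genes were called, with 1824 at an unadjusted p under 0.05 against 1379; Bcl6 was -0.75 and Cish 0.67.

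Normexp left array medians between 92.8 and 3478, and the cause was not tested. With it, 11 pairs of members had a permutation p under 0.05, against 4; r was -0.78 for Stat5b and Socs1 (a reversal), 0.34 for Stat5a and Stat5b, -0.25 for Cish and Bcl6 and 0.54 for Socs2 and Cish. It called 14860 genes with Ghr, 4668 with Jak2, 35 with Stat5a, 14759 with Stat5b, 0 with Socs2, 3 with Cish, 14752 with Socs1 and 13460 with Bcl6. Plain background subtraction called 416 with Stat5b and gave 0.45 for Socs2 and Cish.

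Without the 2 livers farthest from the median of the first gene of each pair, 1 pair had a permutation p under 0.05, with 0.47 for Jak2 and Socs1, 0.49 for Stat5a and Stat5b and 0.37 for Stat5b and Socs1. With the mean of all probes, r was 0.36 for Jak2 and Socs1 and 0.14 for Stat5b and Socs1, and 2 genes were called with Ghr, 23 with Stat5b and 17 with Cish. In the first slide series alone r was 0.22 for Stat5a and Stat5b and 0.56 for Stat5b and Socs1, and 0 genes were called with Stat5a, Stat5b and Cish and 13 with Socs1. In the second, r was 0.40 for Jak2 and Socs1, 0.42 for Stat5b and Socs1 and 0.63 for Socs2 and Cish, with 12, 69, 0 and 3 genes called. A single series holds 10 livers. Without removal of series means r was 0.31 for Stat5a and Stat5b, and without the series term 1452 genes were called with Ghr, 1876 with Jak2, 1003 with Stat5a, 185 with Stat5b and 298 with Socs1. With group means removed too, Socs2 and Cish gave 0.44. No filter on dim probes, which tests more rows, gave 314, 273, 6 and 392 for Stat5a, Stat5b, Cish and Socs1. Without the 5 livers low in Per1, r was 0.30 for Stat5a and Stat5b and 0.55 for Socs2 and Cish, with 2 genes called with Stat5a and 0 with Stat5b.

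Without 1 liver each, 3 to 5 pairs had a permutation p under 0.05, and r lay between -0.70 and -0.61 for Cish and Bcl6, 0.52 and 0.66 for Jak2 and Socs1, 0.49 and 0.68 for Stat5a and Stat5b, 0.39 and 0.58 for Stat5b and Socs1, and 0.28 and 0.50 for Socs2 and Cish. The genes called numbered 273 to 907 with Stat5a, 232 to 1071 with Stat5b, 334 to 1266 with Socs1, 3 to 13 with Cish, 1 to 2 with Socs2 and 0 with Ghr, Jak2 and Bcl6. Of 324 values under other settings, 265 were classed as unchanged. For differences and correlations this meant the same direction and the same side of the threshold. For counts it meant staying within a fixed ratio of the main count.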
